A study of Mus musculus with 18 samples.

Results

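Fos, Jun and related transcription factors were measured in monocytes and macrophages of the LPS-inflamed mouse lung. The members are *Fos*, *Fosb*, *Fosl1*, *Fosl2*, *Jun*, *Junb*, *Jund*, *Atf3*, *Egr1* and *Ier2*, taken from the deposited count table by gene symbol, which gave 10 of its 21254 genes. All 10 passed the filter on low counts, as did 15811 genes in all. The 3 populations, defined by their sort gates among CD45+CD11b+ cells, were compared in both genotypes: moMs (MHC-II-Ly6C+), transitional interstitial macrophages (tnsIMs, MHC-II+Ly6C+) and mature interstitial macrophages (matIMs, MHC-II+Ly6C-). Each of the 6 groups had 3 libraries, numbered 1 to 3 in the labels. WT mice were Ez+/+ x Cx3cr1 Cre+ and *Ezr*-KOm mice were Ez fl/fl x Cx3cr1 Cre+, both on C57BL/6 and aged 3 to 5 months, so that WT and knockout mice alike carried the Cre allele. All mice had breathed nebulized *P. aeruginosa* LPS (12.5 mg in 5 ml, for 15 min) and were taken 24 h later. Cre is driven by *Cx3cr1*, which is active in monocytes and macrophages but also, at a low level, in some dendritic cells, eosinophils and NK cells. The libraries came from 3 mice per genotype, so that the 9 libraries of a genotype share animals, but the labels do not tie a library or a number to a mouse. The fits treat libraries as independent, so that p-values measure the spread between these libraries, and those that join populations (the averaged genotype effect and replicate number) may be too small. Differences between populations are fitted without pairing by animal, so that their p-values may be too large.

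AP-1 is a dimer of bZIP proteins, made from a Fos protein and a Jun protein or from 2 Jun proteins, and it binds short palindromes in promoters and enhancers. *Fos*, *Fosb*, *Jun*, *Junb*, *Atf3*, *Egr1* and *Ier2* are immediate early genes: their transcription starts within minutes of a signal through MAP kinases and the serum response factor SRF, with no need for new protein, and their mRNAs decay quickly. In macrophages Toll-like receptors switch on this programme, and AP-1 acts with NF-kB on cytokine and protease genes. Enzymatic and mechanical dissociation of a tissue also induces these genes. Every lung here was dissociated before sorting and every mouse had received LPS, so that the response to LPS and the response to dissociation cannot be told apart in the levels below.

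Promoter sequences are shown for the members whose upstream bases held a known response element. Whether these elements bear on how the members moved between libraries was not tested. The 500 bases before the annotated start of each member were searched on both strands (GRCm39, Gencode M39 canonical transcripts) for 4 motifs. These were the CArG box that SRF binds, TGACNTCA (the cAMP and ATF response element), TGANTCA (the AP-1 element) and GCGNGGGCG (the Egr element). The CArG box was found before *Fos* (303 to 294 bases from the start) and *Fosb* (266 to 257), and in 2.76% of 21770 protein-coding genes. TGACNTCA was found before *Jun* (45 to 38), *Jund* (214 to 207) and *Ier2* (43 to 36), and in 10.7% of genes. TGANTCA was found before *Fos* (456 to 450), and in 12.3% of genes. GCGNGGGCG was found before *Fosb*, *Jun* and *Jund*, and in 5.45% of genes. No 2 of the members' matches overlapped. In the windows of the other 5 members, *Fosl1*, *Fosl2*, *Junb*, *Atf3* and *Egr1*, these letters did not occur, which speaks only of the bases before the start annotated there. The stretches below run 5′ to 3′ toward the gene, with matches of the 4 motifs in capitals. Those of *Fos* (chr12:85520328-85520447, plus strand) and *Fosb* (chr7:19044157-19044276, minus strand) hold the CArG box, and those of *Jun* (chr4:94940460-94940579, minus strand), *Ier2* (chr8:85389484-85389603, minus strand) and *Jund* (chr8:71151369-71151598, plus strand) the ATF element.
Fos: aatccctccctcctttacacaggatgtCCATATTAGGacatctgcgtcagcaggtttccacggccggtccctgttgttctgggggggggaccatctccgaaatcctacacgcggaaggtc
Fosb: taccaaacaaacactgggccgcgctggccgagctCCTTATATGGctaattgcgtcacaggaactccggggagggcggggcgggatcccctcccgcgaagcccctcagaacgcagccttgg
Jun: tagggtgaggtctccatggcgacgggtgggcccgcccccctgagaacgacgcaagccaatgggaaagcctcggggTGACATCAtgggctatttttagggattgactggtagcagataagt
Ier2: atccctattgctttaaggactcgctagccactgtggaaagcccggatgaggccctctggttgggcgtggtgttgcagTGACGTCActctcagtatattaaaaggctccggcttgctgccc
Jund: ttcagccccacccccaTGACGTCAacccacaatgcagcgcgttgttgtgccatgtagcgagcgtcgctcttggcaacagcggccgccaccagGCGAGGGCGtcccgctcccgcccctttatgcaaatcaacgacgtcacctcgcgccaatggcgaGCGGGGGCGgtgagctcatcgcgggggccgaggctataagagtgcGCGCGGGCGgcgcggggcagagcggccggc

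Libraries held 16512783 to 48460995 counts, and the 10 members took 0.966% to 1.49% of them. Levels are given as CPM, counts scaled to a common library size with TMM factors. *Ezr*, the deleted gene, lay between 497 and 741 CPM in the 9 WT libraries and between 93.8 and 282 CPM in the 9 *Ezr*-KOm libraries, without overlap. Of the markers of the gates, MHC class II genes summed to 3714 to 6678 CPM in moMs and to 25996 CPM or more in every library of tnsIMs and matIMs. Markers of other cells were present too: 7 epithelial genes summed to 1760 to 4212 CPM in tnsIMs, against 86.4 to 207 CPM in moMs and 348 to 592 CPM in matIMs. A list of 8 dendritic cell genes summed to 83.3 to 124 CPM in moMs, 308 to 605 CPM in tnsIMs and 5502 to 7597 CPM in matIMs. None of these 15 genes was at 0 in every library of a population. The kit does not mark strand, and genes on the opposite strand overlap *Fosl1* (*Gm59617*, *Ccdc85b*), *Fosl2* (*Gm72529*), *Jun* (*Junos*), *Junb* (*Prdx2*, *Gm65321*), *Jund* (*Gm11175*) and *Atf3* (*Gm55866*). Reads from such overlaps cannot be told apart, while *Fos*, *Fosb*, *Egr1* and *Ier2* had no overlapping gene.

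Per kb of exon, the members spanned a wide range of levels. *Junb* stood highest at 1504 ± 343 CPM per kb (SD, n = 18 libraries), followed by *Fos* at 1327 ± 294 and *Ier2* at 684 ± 97.8. *Atf3* (413 ± 97.9) and *Egr1* (406 ± 86.9) came next, ahead of *Jun* (241 ± 65.5) and *Jund* (167 ± 54.5). *Fosl2* (31.1 ± 8.24), *Fosb* (28.2 ± 9.60) and *Fosl1* (2.06 ± 1.04) stood lowest on the same scale. The order was stable between most neighbours: *Fos* was above *Ier2*, *Ier2* above *Atf3*, *Egr1* above *Jun*, *Jund* above *Fosl2* and *Fosb* above *Fosl1* in 18 of 18 libraries. *Jun* was above *Jund* in 17 of 18 libraries. *Atf3* and *Egr1* were not ordered beyond their spread, with *Atf3* higher in 9 of 18 libraries, and *Junb* exceeded *Fos*, and *Fosl2* exceeded *Fosb*, in 14 of 18. On this per-kb scale, therefore, the *Fos* and *Junb* pair lay far above the other Fos and Jun family members in each population. *Fosl1* rested on 33 to 302 counts in a library, and its values carry the largest spread.

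**Figure D1:**
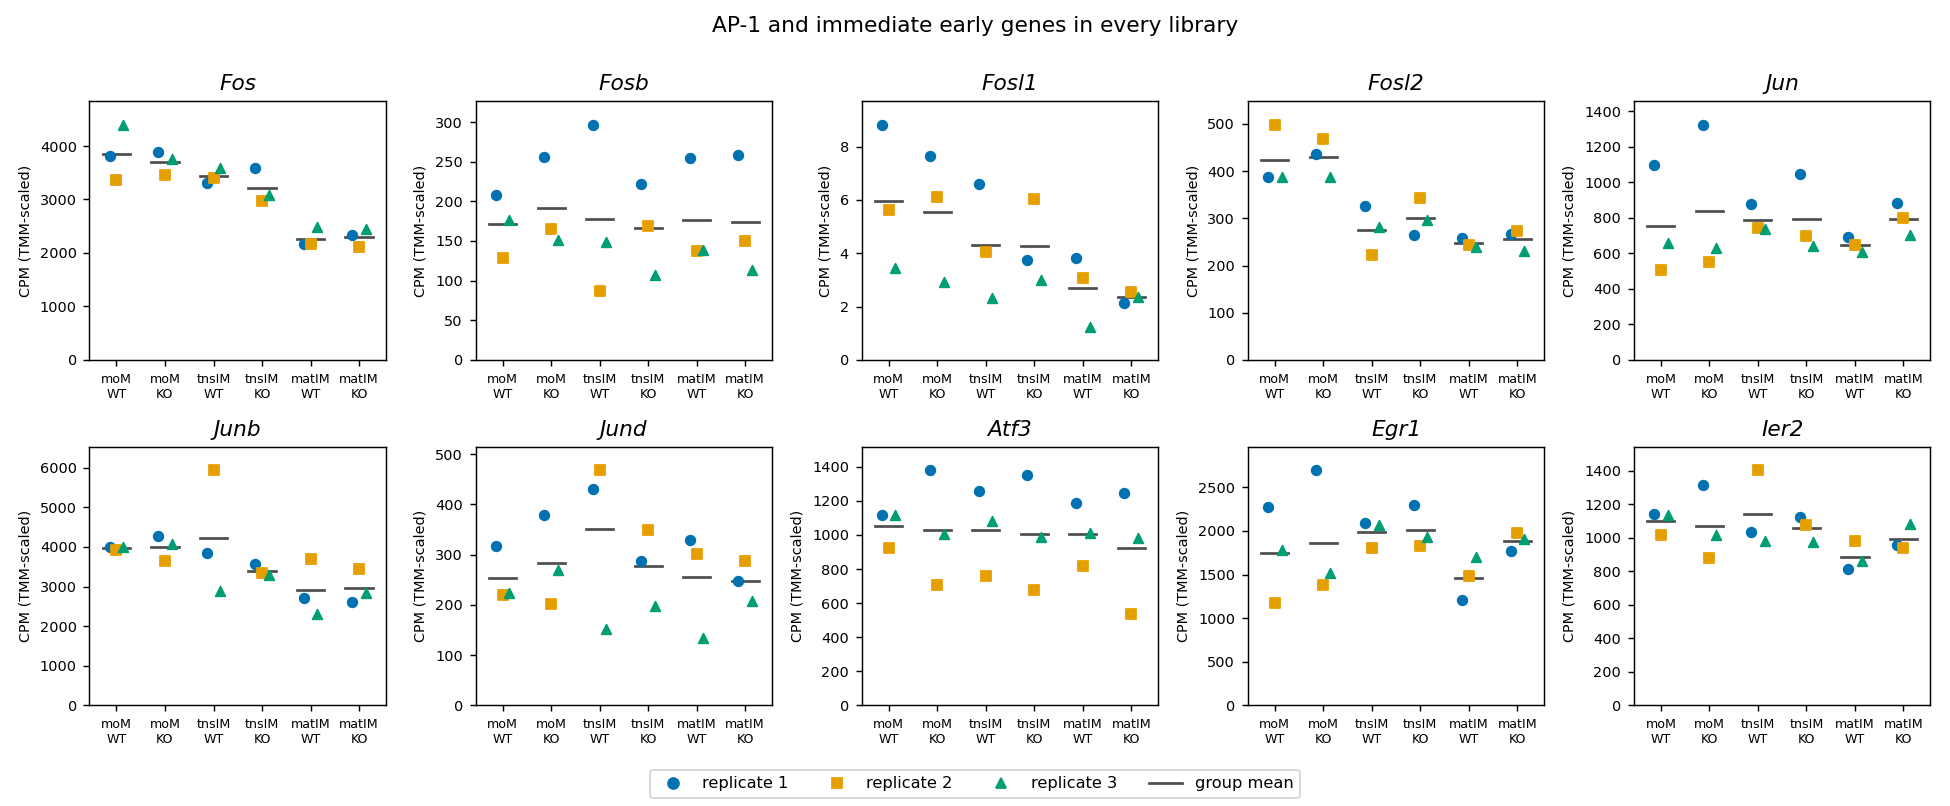
Each panel shows the level of 1 member (vertical axis, CPM after TMM scaling, from 0) in the 6 groups of population and genotype (horizontal axis, KO for *Ezr*-KOm). Points are single libraries, with shape and colour by replicate number, and lines are group means of 3 libraries. *Fos* falls from moMs and tnsIMs to matIMs with every matIM library at or below 2485 CPM, and *Fosb* is highest in number 1 in each of the 6 groups.

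Among the Fos family, *Fos* fell in matIMs and *Fosl2* fell in both tnsIMs and matIMs relative to moMs, in WT and in *Ezr*-KOm mice, while *Fosb* had no called difference. *Fos*, the partner that makes AP-1 with Jun proteins in acute responses, read 3805, 3372 and 4401 CPM in the 3 WT moM libraries (numbers 1 to 3, the order kept throughout) and 3897, 3450 and 3750 in those of *Ezr*-KOm. In tnsIMs it read 3300, 3407 and 3588 CPM in WT and 3595, 2969 and 3093 in *Ezr*-KOm. In matIMs it read 2163, 2162 and 2485 CPM in WT and 2329, 2112 and 2449 in *Ezr*-KOm. All 6 matIM libraries lay below all 12 others, while moMs and tnsIMs overlapped. From moMs to matIMs *Fos* fell by 0.77 on the log2 scale in WT (SE 0.131, adjusted p = 0.000243) and by 0.69 in *Ezr*-KOm (SE 0.131, adjusted p = 0.000674). From tnsIMs to matIMs it fell by 0.60 in WT (SE 0.131, adjusted p = 0.00282) and by 0.49 in *Ezr*-KOm (SE 0.131, adjusted p = 0.0122). These and all further adjusted p are from edgeR's two-sided quasi-likelihood test with Benjamini-Hochberg adjustment over all tested genes. In sorted bulk samples a smaller share of expressing cells and less RNA per cell cannot be told apart. The last of these calls was lost without *Ezr*-KOm tnsIM replicate 1 (adjusted p = 0.0658) or matIM replicate 2 (adjusted p = 0.0674), and without all libraries of number 1 (adjusted p = 0.165) or number 2 (adjusted p = 0.0649).

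*Fosl2* encodes Fra-2, a Fos family protein of more lasting expression. It read 388, 499 and 387 CPM in WT moMs and 436, 467 and 389 in *Ezr*-KOm moMs. In tnsIMs it read 327, 221 and 281 CPM in WT and 265, 343 and 297 in *Ezr*-KOm. The 6 moM libraries lay above every tnsIM and matIM library. In matIMs *Fosl2* read 259, 244 and 240 CPM in WT and 267, 273 and 230 in *Ezr*-KOm, within the range of the tnsIMs. Relative to moMs it fell in matIMs by 0.78 on the log2 scale in WT (SE 0.155, adjusted p = 0.000944) and by 0.74 in *Ezr*-KOm (SE 0.154, adjusted p = 0.00141). In tnsIMs it fell by 0.62 in WT (SE 0.154, adjusted p = 0.00736) and by 0.51 in *Ezr*-KOm (SE 0.154, adjusted p = 0.0308). The WT tnsIM call rested on replicate 2: the adjusted p was 0.0589 without that moM library, 0.0599 without that tnsIM library and 0.175 (log2 -0.35) without all libraries of number 2. The *Ezr*-KOm tnsIM call was lost under 4 alternatives of filter or scaling and without each library but tnsIM replicate 2, with adjusted p of 0.0534 to 0.133 in the latter. It was also lost without all libraries of any 1 number.

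*Fosl1*, which encodes Fra-1, was the scarcest member. In moMs it read 8.82, 5.64 and 3.46 CPM in WT and 7.66, 6.09 and 2.91 in *Ezr*-KOm. In tnsIMs it read 6.59, 4.06 and 2.31 CPM in WT and 3.74, 6.02 and 3.01 in *Ezr*-KOm, and in matIMs 3.81, 3.08 and 1.23 in WT and 2.15, 2.55 and 2.35 in *Ezr*-KOm. Levels overlapped between the populations, and number 3 of moMs lay within the range of the matIM libraries. The log2 difference of matIMs from moMs was -1.14 in WT (SE 0.462, adjusted p = 0.0818) and -1.24 in *Ezr*-KOm (SE 0.462, adjusted p = 0.0602). With the replicate number as a block it passed, at -1.17 (adjusted p = 0.00734) and -1.11 (adjusted p = 0.0114), as it did with DESeq2 (adjusted p = 0.047 and 0.0318). It also passed without moM replicate 3 of the same genotype (adjusted p = 0.0457 in WT and 0.0276 in *Ezr*-KOm). These are not all the passes. Of 18 alternatives in each genotype, the difference did not pass under 14 in WT and 12 in *Ezr*-KOm. Adjusted p over all alternatives ran from 0.00309 to 0.303 in WT and from 0.00347 to 0.328 in *Ezr*-KOm.

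*Fosb*, the other strongly inducible Fos gene, moved with the library number and had no called difference between populations. It read 209, 128 and 176 CPM in WT moMs, 297, 86.7 and 148 in WT tnsIMs and 254, 137 and 139 in WT matIMs. In *Ezr*-KOm it read 256, 165 and 151 CPM in moMs, 221, 169 and 107 in tnsIMs and 258, 149 and 114 in matIMs. The first value of each triple is its highest, and the ranges of the 3 populations overlapped in both genotypes. The smallest unadjusted p among its population differences was 0.610.

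The Jun genes did not pass the adjusted threshold between populations. *Junb*, a Jun protein that often restrains Jun itself and is high in LPS-treated macrophages, read 4005, 3935 and 3997 CPM in WT moMs and 4281, 3654 and 4078 in *Ezr*-KOm moMs. In tnsIMs it read 3852, 5937 and 2895 CPM in WT, where number 2 stood apart above every other library, and 3574, 3341 and 3295 in *Ezr*-KOm. In matIMs it read 2715, 3697 and 2307 CPM in WT and 2611, 3433 and 2835 in *Ezr*-KOm. The log2 difference of WT matIMs was -0.45 from moMs (SE 0.209, adjusted p = 0.128) and -0.54 from tnsIMs (SE 0.209, adjusted p = 0.0844). The former did not pass under 15 of 18 alternatives, with adjusted p from 0.0186 to 0.44 over all 18. Among those where the former passed was the fit without WT matIM replicate 2 (adjusted p = 0.0431). The latter passed with the replicate number as a block, at -0.53 (adjusted p = 0.0405), with genotype and number as a block (adjusted p = 0.0236), with DESeq2 (adjusted p = 0.0465) and without WT tnsIM replicate 3 (adjusted p = 0.0082) or WT matIM replicate 2 (adjusted p = 0.0295). Without the high WT tnsIM replicate 2 it shrank to -0.25 (adjusted p = 0.486), and it did not pass under the other alternatives. *Jun*, the founding member of the family and a target of the JNK kinases, read 1096, 508 and 656 CPM in WT moMs and 1326, 553 and 633 in *Ezr*-KOm moMs. Number 1 of the moMs lay far above the other 2 in both genotypes. *Jun* read 880, 740 and 736 CPM in WT and 1050, 696 and 642 in *Ezr*-KOm tnsIMs, and 693, 648 and 606 in WT and 881, 798 and 704 in *Ezr*-KOm matIMs. *Jund*, the Jun gene that resting cells also express, read 317, 220 and 224 CPM in WT and 378, 202 and 269 in *Ezr*-KOm moMs. Its tnsIM values were 431, 468 and 153 CPM in WT and 287, 350 and 198 in *Ezr*-KOm, and its matIM values 330, 301 and 135 in WT and 247, 288 and 208 in *Ezr*-KOm. Both genes overlapped between all 3 populations, and *Jund* was lowest in number 3 of every IM group.

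*Atf3*, *Egr1* and *Ier2* likewise overlapped between populations. *Atf3*, a bZIP repressor induced by Toll-like receptor signals that dampens cytokine genes, read 1114, 921 and 1116 CPM in WT and 1380, 708 and 1005 in *Ezr*-KOm moMs. In tnsIMs it read 1256, 756 and 1080 CPM in WT and 1353, 676 and 986 in *Ezr*-KOm, and in matIMs 1187, 817 and 1009 in WT and 1248, 534 and 979 in *Ezr*-KOm. Its second value, that of number 2, was the lowest in all 6 groups. *Egr1*, a zinc finger factor under SRF, read 2279, 1171 and 1776 CPM in WT and 2697, 1382 and 1517 in *Ezr*-KOm moMs. In tnsIMs *Egr1* read 2095, 1809 and 2068 CPM in WT and 2294, 1823 and 1927 in *Ezr*-KOm, and in matIMs 1208, 1483 and 1706 in WT and 1768, 1971 and 1905 in *Ezr*-KOm. Like *Jun*, *Egr1* was highest in number 1 of the moMs and tnsIMs, but not of the matIMs. *Ier2*, a small nuclear protein induced by growth factors, read 1145, 1020 and 1140 CPM in WT and 1318, 881 and 1018 in *Ezr*-KOm moMs. Its tnsIM values were 1035, 1405 and 981 CPM in WT and 1123, 1077 and 976 in *Ezr*-KOm, and its matIM values 812, 982 and 863 in WT and 960, 941 and 1081 in *Ezr*-KOm. The log2 difference of *Ier2* between WT matIMs and tnsIMs was -0.36 (SE 0.16, adjusted p = 0.137), and -0.22 (adjusted p = 0.475) without WT tnsIM replicate 2.

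Counted over the 10 members, 1 was lower in WT tnsIMs than in moMs, against 8.61% of all tested genes. In WT matIMs 2 were lower than in moMs, against 11.4% of all genes, and 1 was lower than in tnsIMs, against 10.2%. The *Ezr*-KOm counts were 1 (against 5.04%), 2 (against 10.7%) and 1 (against 9.85%) for the same 3 comparisons. These counts lay near the background of genes called lower, and each call was a decrease. Shares called in either direction were 21.6%, 24.8% and 18.5% of genes in WT for the same comparisons. In *Ezr*-KOm they were 14.3%, 23.3% and 18.2%, and each count out of 10 lay below its share. With the replicate number as a block the WT counts were 1, 3 and 2, against 28.9%, 30.9% and 23.1% of genes called in either direction, and the *Ezr*-KOm counts were 1, 3 and 1, against 20.1%, 29.3% and 23.4%. Of the 10 fitted differences of matIMs from tnsIMs, 10 were negative in WT, with a median log2 of -0.40 against 0.037 over all genes, and 9 in *Ezr*-KOm, with a median of -0.15 against 0.015. With the block *Fosb* turned to 0.061 in WT. The median from moMs to matIMs was -0.28 in WT and -0.18 in *Ezr*-KOm, and from moMs to tnsIMs 0.052 and -0.14. The last 3 medians did not keep their sign. From moMs to matIMs in *Ezr*-KOm the median was 0.080 without *Ezr*-KOm moM replicate 1. From moMs to tnsIMs in *Ezr*-KOm it was 0.16 without that library and 0.046 without tnsIM replicate 3. From moMs to tnsIMs in WT it was -0.10 without moM replicate 2 and -0.099 without tnsIM replicate 1. By the study's own rule, an unadjusted p under 0.05 with a log2 change beyond 0.75, 3 members were called between WT matIMs and moMs, against 22.8% of genes, and 1 in *Ezr*-KOm, against 22.5%. That rule called 0 members between tnsIMs and moMs (against 21% in WT and 16.8% in *Ezr*-KOm) and between matIMs and tnsIMs (against 19.6% and 19.9%). All other fitted differences lay within -0.87 and 0.47. The rise of dendritic cell markers in matIMs (7 of 8 called higher than in moMs in both genotypes) and of epithelial markers in tnsIMs (5 of 7 called in both) moved with these comparisons. Epithelial markers were also higher in matIMs than in moMs, 5 of 7 in WT and 4 of 7 in *Ezr*-KOm. In both genotypes tnsIMs also had 6 of 6 endothelial, 4 of 6 fibroblast and 4 of 5 B cell markers higher than moMs. Of 9 neutrophil genes, 4 were higher and 1 lower in tnsIMs than in moMs in both genotypes. Relative to moMs, matIMs had 5 of 5 B cell and 6 of 6 alveolar macrophage markers higher, and 6 of 8 monocyte and macrophage genes and 4 of 6 endothelial markers lower, in both genotypes. The part of these markers in the result was not tested.

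**Figure D2:**
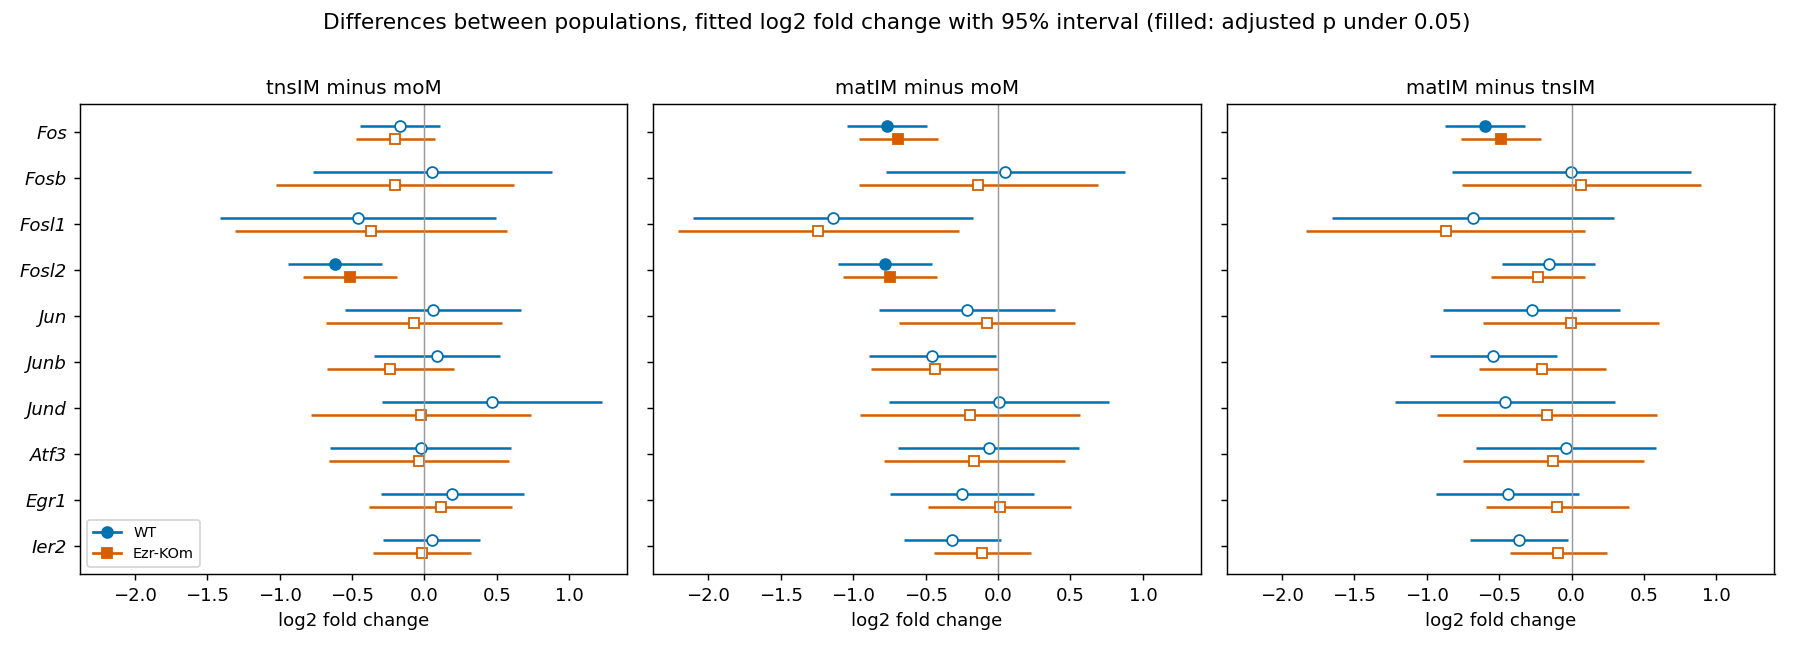
Fitted log2 fold changes of the 10 members between populations (horizontal axis, log2) with 95% intervals, WT as circles and *Ezr*-KOm as squares; filled symbols passed an adjusted p of 0.05 and open symbols did not. *Fos* and *Fosl2* carry every filled symbol, all left of 0, at similar distances in both genotypes.

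The wider early-response programme was compared over lists. Over all tested genes, in either direction, tnsIMs differed from moMs in 21.6% of genes in WT and 14.3% in *Ezr*-KOm, matIMs from moMs in 24.8% and 23.3%, and matIMs from tnsIMs in 18.5% and 18.2%, which is the background for the counts that follow. Of 32 other immediate early genes, 12 were lower and 4 higher in WT matIMs than in moMs, and in *Ezr*-KOm 10 were lower and 5 higher. The called genes with the smallest p in WT were *Tiparp* (log2 -1.29) and *Ier3* (-1.05) among those lower, and *Myc* (0.73) and *Rgs1* (1.94) among those higher. In *Ezr*-KOm the same criterion gave *Ier3* (-1.50) and *Cebpd* (-0.99) as lower and *Egr3* (1.71) and *Rgs1* (1.89) as higher. Between matIMs and tnsIMs, 5 of the 32 were lower in WT, led by *Egr2* (-0.99) and *Cebpd* (-1.05), and 4 in *Ezr*-KOm, led by *Ier3* (-1.44) and *Egr2* (-0.83). Between tnsIMs and moMs, 3 were higher in WT, among them *Myc* (0.80) and *Egr2* (0.61), and 1 lower, *Tiparp* (-0.98); in *Ezr*-KOm 2 were higher, *Myc* (0.58) and *Egr3* (1.28), and *Tiparp* was lower (-0.81). The list thus held genes that moved both ways.

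Among 18 other bZIP partners, *Maf*, a known regulator of macrophage genes, was lower in matIMs. Relative to moMs it fell by 1.46 on the log2 scale in WT and by 1.51 in *Ezr*-KOm. *Batf3*, a partner of Jun needed for a class of conventional dendritic cells, rose by 1.27 in WT and 1.13 in *Ezr*-KOm matIMs. In all, 4 of the 18 were lower and 1 higher in matIMs than in moMs in each genotype. From tnsIMs to matIMs *Maf* differed by -1.33 in WT and -1.31 in *Ezr*-KOm, and *Batf3* by 0.74 and 0.85, each called. In tnsIMs 3 of the 18 were lower than in moMs in WT, led by *Atf6* (-0.62) and *Batf* (-0.55), and 2 in *Ezr*-KOm, among them *Atf6* (-0.55).

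Known AP-1 targets, 15 genes, moved both ways. In WT matIMs 7 were lower and 3 higher than in moMs, and in *Ezr*-KOm 6 were lower and 3 higher. *Il6* and *Ccl2*, a cytokine and a monocyte chemokine, fell by 1.54 and 1.39 in WT and by 1.54 and 1.54 in *Ezr*-KOm. The macrophage elastase *Mmp12* rose by 1.90 and *Ccnd1* by 2.61 in WT, and *Mmp9* by 3.14 and *Mmp12* by 1.65 in *Ezr*-KOm. In tnsIMs *Mmp12* (1.57 in WT, 1.48 in *Ezr*-KOm) and *Mmp9* (2.44 and 2.32) were higher than in moMs and *Il6* lower (-1.07 and -0.85), with 4 of 15 higher and 1 lower in WT, and 3 and 1 in *Ezr*-KOm. Between matIMs and tnsIMs *Ccl2* was lower in both genotypes (-1.41 and -1.16), with *Mmp3* (-3.39) beside it in WT and *Spp1* (-1.70) in *Ezr*-KOm, and *Ccnd1* was higher in WT (1.31). That comparison called 4 of 15 lower and 1 higher in WT, and 6 lower and 0 higher in *Ezr*-KOm.

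The upstream kinases and SRF cofactors had few calls between matIMs and moMs. Of 20 genes, 2 were called between WT matIMs and moMs, *Map2k6* (-1.92) and *Mapk3* (-0.37), both lower. In *Ezr*-KOm 2 were called, *Elk3* lower (-0.48) and *Mrtfa*, an actin-sensing cofactor of SRF, higher (0.61). *Mrtfa* was also higher in matIMs than in tnsIMs, by 1.12 in WT and 1.01 in *Ezr*-KOm, where *Elk3* was lower (-0.61). In WT tnsIMs 6 of 20 were lower than in moMs, led by *Mrtfa* (-0.75) and *Mapk14* (-0.50), and in *Ezr*-KOm 0 were called. Of 14 heat shock genes, a second group that cell handling induces, 2 were higher in WT matIMs than in moMs, *Hsp90ab1* (0.76) and *Hsph1* (0.50), and in *Ezr*-KOm only *Hsp90ab1* (0.58). *Hspb1* was higher in tnsIMs than in moMs (1.88 in WT, 1.57 in *Ezr*-KOm), with *Hsp90ab1* (0.45) beside it in WT, and lower in matIMs than in tnsIMs (-2.63 and -2.15).

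Loss of ezrin was compared next. None of the 10 members was called between *Ezr*-KOm and WT, in moMs (against 0.171% of all tested genes), in tnsIMs (against 0.164%) or in matIMs (against 0.152%), and none was at an unadjusted p under 0.05 (against 3.74%, 3.24% and 3.84% of genes). DESeq2 called 0 members too. By the study's rule 0 members were called too, against 2.51%, 1.83% and 2.4% of genes. Fitted log2 differences ran from -0.098 (*Fosl1*) to 0.16 (*Fosb*) in moMs, from -0.33 (*Jund*) to 0.13 (*Fosl2*) in tnsIMs and from -0.20 (*Fosl1*) to 0.36 (*Egr1*) in matIMs. The smallest p was 0.144, for *Egr1* in matIMs (1208, 1483 and 1706 CPM in WT and 1768, 1971 and 1905 CPM in *Ezr*-KOm, without overlap; edgeR, unadjusted). These results do not show that the levels were equal: the 95% intervals reached from -1.04 to 0.99 in moMs, from -1.09 to 0.94 in tnsIMs and from -1.18 to 0.90 in matIMs. *Fos* was measured most narrowly, with intervals from -0.34 to 0.21 in moMs, -0.37 to 0.18 in tnsIMs and -0.26 to 0.29 in matIMs. Averaged over the populations, 0 members passed, against 0.854% of genes, and 0 by the study's rule, against 2.18%, with fitted differences from -0.10 (*Fosl1*) to 0.16 (*Egr1*) and intervals within -0.65 and 0.51. The genotype effect did not differ between populations for any member at an adjusted p of 0.05, against 0% of genes, and the smallest unadjusted p was 0.243. With the replicate number as a block the smallest p was 0.101, again for *Egr1* in matIMs. Of the lists, the averaged effect called 1 of 15 AP-1 targets, the collagenase *Mmp13* (higher by 0.87, 21.3 against 11.8 CPM, adjusted p = 0.0121), and 1 of 14 heat shock genes, *Hsph1* (lower, -0.50, 60.6 against 86.2 CPM, adjusted p = 0.019), both named after their values were seen. Of 6 fibroblast markers 1 was called beside them, *Pdgfra* (higher by 1.25, adjusted p = 0.00168), and its part in the result was not tested. The lists of early genes, bZIP partners and kinases had 0 calls.

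**Figure D3:**
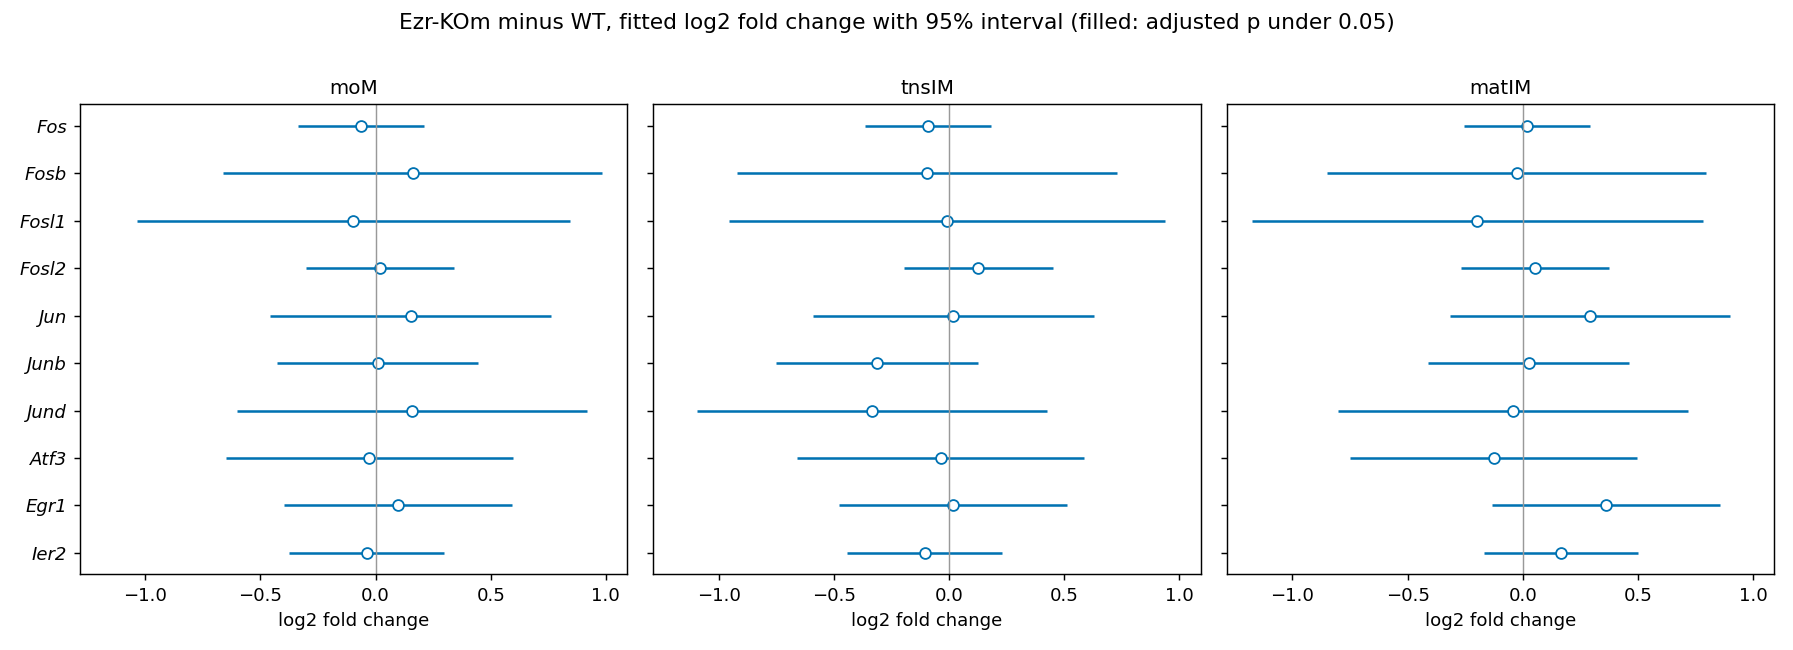
Fitted log2 fold changes of *Ezr*-KOm against WT for the 10 members (horizontal axis, log2) in moMs, tnsIMs and matIMs, with 95% intervals; open symbols did not pass an adjusted p of 0.05. Every interval spans 0, and those of *Fosl1* are the widest.

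Replicate number was compared next, over all 18 libraries. With number added to the model of groups, 5 of the 10 differed between numbers, against 15.1% of all tested genes: *Atf3* (adjusted p = 0.000261), *Fosb* (adjusted p = 0.0012), *Jun* (adjusted p = 0.00806), *Fosl1* (adjusted p = 0.011) and *Jund* (adjusted p = 0.0326; edgeR quasi-likelihood F-test, Benjamini-Hochberg). *Fos*, *Fosl2*, *Junb*, *Egr1* and *Ier2* did not pass. *Fosb* ranged from 209 to 297 CPM over the 6 libraries of number 1 (median 255), from 86.7 to 169 in number 2 (median 143) and from 107 to 176 in number 3 (median 144). Number 1 did not overlap with the others and was highest in 6 of 6 groups. Number 2 lay below number 1 by a log2 of -0.84 (95% interval -1.17 to -0.52) and number 3 by -0.85 (-1.17 to -0.52).

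*Jun* likewise was highest in number 1 in 6 of 6 groups. Its 6 libraries ran from 693 to 1326 CPM in number 1, from 508 to 798 in number 2 and from 606 to 736 in number 3, and the log2 difference from number 1 was -0.58 (-0.86 to -0.30) in number 2 and -0.57 (-0.85 to -0.29) in number 3. The gap was widest in moMs, where number 1 read 1096 CPM in WT and 1326 in *Ezr*-KOm. *Atf3* was lowest in number 2 in 6 of 6 groups and highest in number 1 in 5 of 6. It ran from 1114 to 1380 CPM in number 1, from 534 to 921 in number 2 and from 979 to 1116 in number 3, so that number 2 lay below all libraries of the others. Number 2 differed from number 1 by -0.79 (-1.0 to -0.57), and number 3 by -0.29 (-0.50 to -0.081). *Jund* and *Fosl1* shared another pattern, with number 3 lowest in 4 of 6 and in 5 of 6 groups. *Jund* ran from 247 to 431 CPM in number 1, from 202 to 468 in number 2 and from 135 to 269 in number 3. *Fosl1* ran from 2.15 to 8.82 CPM, from 2.55 to 6.09 and from 1.23 to 3.46 in the same order, and number 3 differed from number 1 by -1.04 (-1.50 to -0.57). Within the groups, the median member had 51.8% of its variation with replicate number, against 30.7% for the median tested gene, where 16.7% is the share that 2 of 12 degrees of freedom give. *Atf3* had 85.4%, *Fosb* 74.0% and *Ier2* 3.27%. The pooled within-group SD on the log2 scale ran from 0.126 in *Fos* to 0.641 in *Fosl1*, and *Fos* and *Fosl2*, the members called between populations, were the 2 with the least spread.

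**Figure D4:**
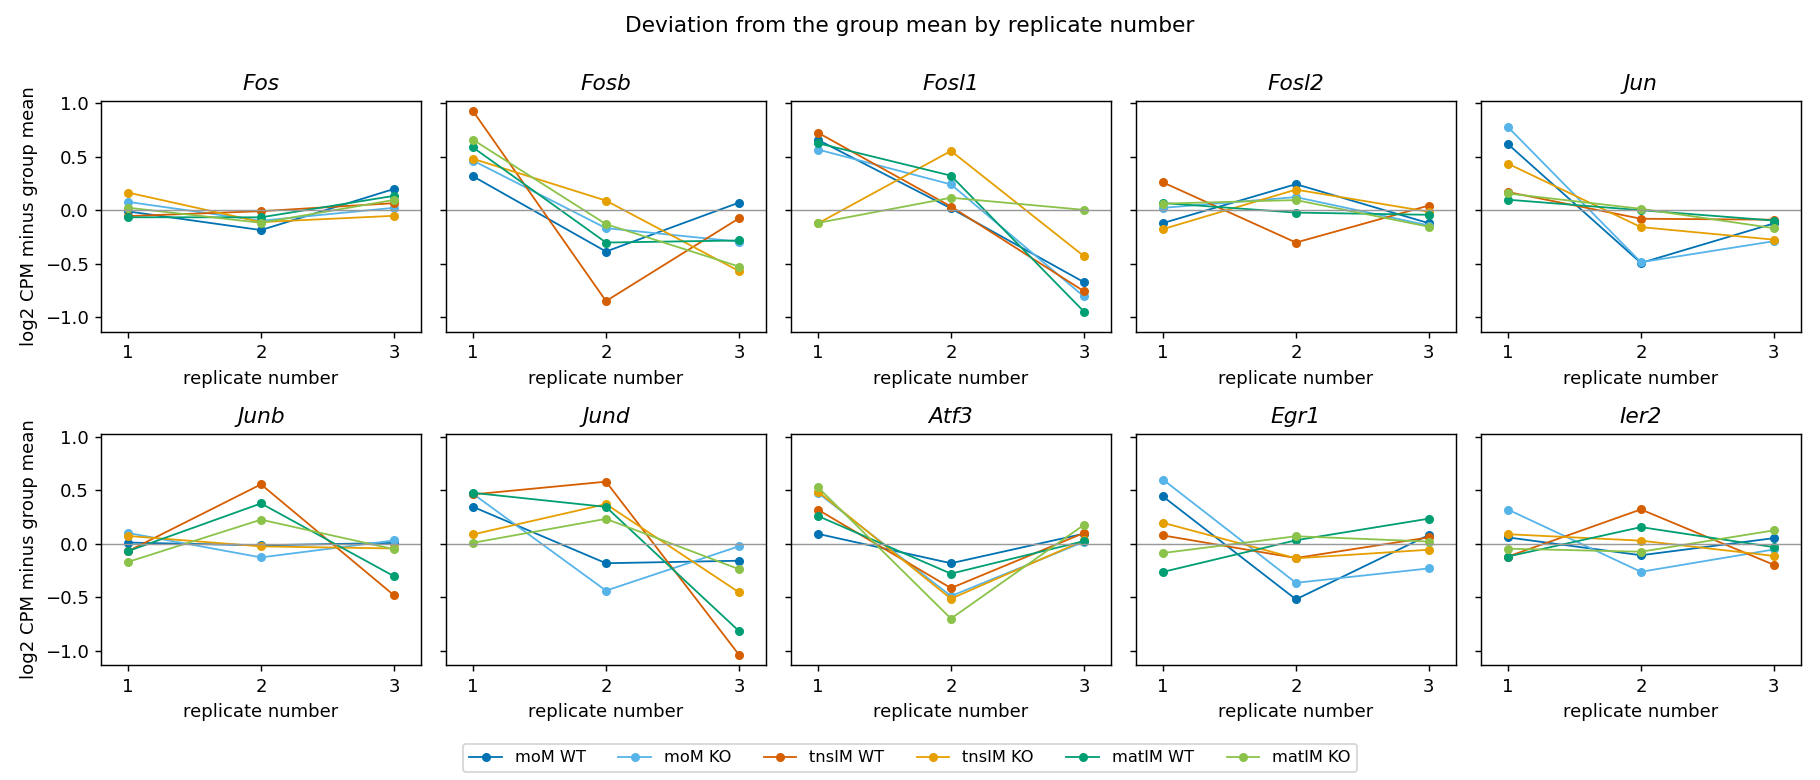
Each panel shows, for 1 member, the log2 CPM of a library minus the mean of its group (vertical axis) by replicate number (horizontal axis), with 1 line for each of the 6 groups. The lines run together for *Fosb* and *Jun*, high in number 1, and for *Atf3*, low in number 2, and they scatter around 0 for *Ier2*.

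The result rested in part on number 1. Without its 6 libraries 1 of 10 members still differed between numbers 2 and 3, *Atf3* (adjusted p = 0.0429), and 146 genes in all. Without number 1 *Fosb* had an adjusted p of 0.991, *Jun* 0.972, *Fosl1* 0.0666 and *Jund* 0.215. Without number 3 the count was 3, with *Fosl1* (adjusted p = 0.643) and *Jund* (adjusted p = 0.572) lost, and without number 2 it was 5. Within WT alone 4 of 10 differed, without *Jun* (adjusted p = 0.126), and within *Ezr*-KOm alone 3 differed, without *Fosl1* (adjusted p = 0.33) and *Jund* (adjusted p = 0.41). The background of 15.1% belongs to the fit of all 18 libraries. Shares of all genes called in the refits without number 2 or 3 or within a genotype are not given here. Those counts therefore cannot be set against a background. *Jund* was also lost without any of 6 single libraries, WT or *Ezr*-KOm moM replicate 1, WT or *Ezr*-KOm tnsIM replicate 3 and WT matIM replicate 1 or 3, with adjusted p of 0.0517 to 0.106. Totals ran from 18443205 to 27490646 counts in number 1, from 16512783 to 48460995 in number 2 and from 22505766 to 25924018 in number 3, with medians of 23997378, 25884460 and 24014550. Members took a median of 1.36% of counts in number 1, 1.12% in number 2 and 1.19% in number 3. What a number stands for (a day, a litter or a sort) is not given in the labels, and handling, sort and mouse cannot be told apart here.

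The same split was seen in other early genes. Of the 32 other immediate early genes, 16 differed between numbers, against 15.1% of all tested genes, and 13 of these 16 were highest in number 1. *Nr4a2*, an orphan nuclear receptor, had the smallest p (log2 -0.17 in number 2 and -1.23 in number 3 relative to number 1, adjusted p = 2.26e-06), followed by *Klf6* (-1.01 and -0.73, adjusted p = 1.5e-05). *Btg2* (0.83 and 0.61) and *Nr4a1* (0.40 and 0.14) were highest in number 2, and *Socs3* (-0.20 and 0.16) in number 3. Of the 18 bZIP partners 7 differed, each highest in number 1, among them *Batf2* (-1.52 and -0.0071), whose low value in number 2 resembled that of *Atf3*, and *Crem* (-0.40 in number 2, lower still in number 3). Of the 15 AP-1 targets 6 differed, again each highest in number 1, led by *Plau*, the urokinase gene (-1.22 and -1.19), and *Spp1* (-0.12 and -0.82). Of the 14 heat shock genes 4 differed, each highest in number 1, led by *Dnajb4* (-0.98 and -0.88) and *Hspa1a* (-0.45 and -1.04). Of the 20 kinases and SRF cofactors 3 differed, each highest in number 3, led by *Map3k8* (0.0081 and 0.51) and *Mapk14* (0.22 and 0.31). Over all tested genes, the 2388 that differed were highest in number 1 in 967 cases, in number 2 in 423 and in number 3 in 998.

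Some cell type markers moved with number as well. Of the lists, 4 of 5 B cell genes (highest in number 3), 4 of 8 dendritic cell genes (3 highest in number 2), 2 of 6 alveolar macrophage genes (highest in number 2) and 2 of 7 epithelial genes differed. The 2 epithelial genes, *Ager* and *Scgb1a1*, were highest in number 1. Of the macrophage and monocyte genes 3 of 8 differed, of neutrophil genes 1 of 9, of T and NK cell genes 1 of 7, and 0 of the MHC class II (4), endothelial (6) and fibroblast (6) genes. Among those 3, *Ly6c2*, a Ly6C gene like the marker of the gates, was highest in number 1 (log2 -0.89 in number 2 and -0.51 in number 3). *Ccr2* (0.22 and 0.37) and *Ptprc* (-0.0066 and 0.35) were highest in number 3. The part of these markers in the result was not tested. Summed B cell markers stayed at or below 222 CPM in every library.

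**Figure D5:**
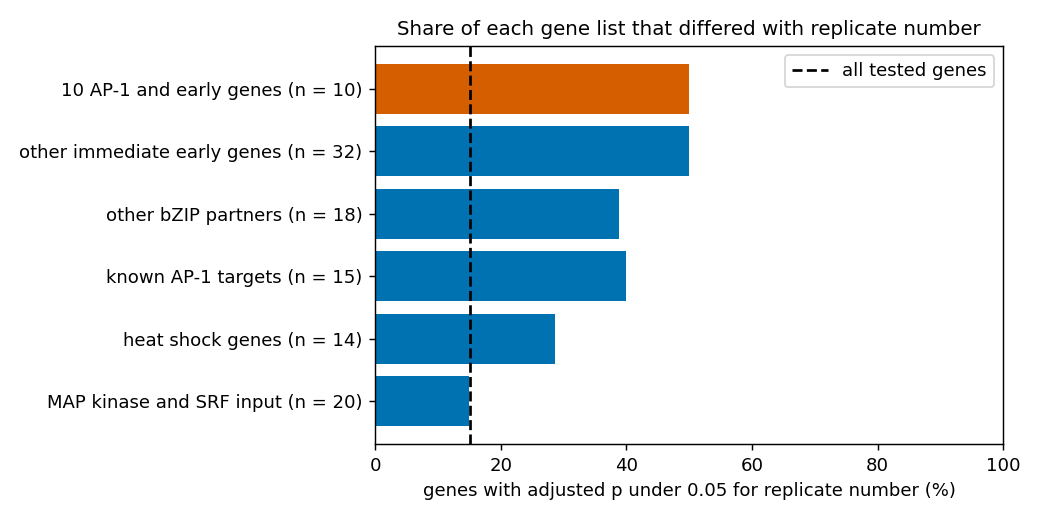
Bars give the share of each gene list with an adjusted p under 0.05 for replicate number (horizontal axis, percent, from 0), with the number of tested genes in brackets, and the dashed line gives the share over all 15811 tested genes, 15.1%. The bars of the 10 members and of the other immediate early genes both stand at 50%, and that of the kinases and SRF cofactors at the dashed line.

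Deviations from the group means were also compared between genes over the 18 libraries, as a description, since the libraries share numbers and each value shares its library's depth. *Jun* and *Egr1* deviated together (Pearson r = 0.83), as did *Fosl1* and *Jund* (0.76), *Junb* and *Jund* (0.73) and *Fosb* and *Jun* (0.63). *Fos* and *Fosl2* deviated in opposite directions (-0.63). The genes outside the list most like each member were *Yod1* (0.95), *Id2* (0.94) and *4632427E13Rik* (0.93) for *Jun*, and *Slc22a4* (0.95), *Gm49586* (0.93) and *Fam222a* (0.92) for *Fosb*. For *Atf3* they were *Zbp1* (0.96), *Cxcl10* (0.95) and *Gm50063* (0.95). *Jund* was most like *Scand1* (0.96), *Arpc4* (0.95) and *Ift20* (0.94), and *Fosl1* most like *Jdp2* (0.94), *Fth1-ps* (0.94) and *Acp5* (0.92). *Junb* was most like *Rala* (0.90), *Hpf1* (0.89) and *Pfn1* (0.89), and *Fosl2* most like *Sh3pxd2b* (0.89), *Klf16* (0.88) and *Poll* (0.84). *Egr1* was most like *Gm44116* (0.88), *Cyp2b10* (0.87) and *Lbh* (0.87), *Ier2* most like *Plxna4os1* (0.86), *Nnat* (0.85) and *Thap3* (0.85), and *Fos* most like *4933412E12Rik* (0.84), *Cdk5rap1* (0.83) and *Gm24924* (0.83).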

How the data were processed

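The authors aligned reads with STAR 2.7.9a to GRCm39 and deposited whole-number counts per gene (Gencode M29), without normalization. Which strand column was counted is not given in the sources used here. Columns were matched to samples by name. Within groups, libraries differed beyond sampling noise (chi-square per degree of freedom 19.1 to 92.5).

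As in the authors' methods, edgeR 4.0.16 (R 4.3.3) was used. Genes passed filterByExpr (smallest count 10), libraries were scaled with TMM, and 1 quasi-likelihood model of 6 groups and 18 libraries was fitted. Calls are at a Benjamini-Hochberg adjusted p under 0.05 over 15811 genes, two-sided. Replicate number was tested with an F-test in a model of group and number. CPM per kb used the merged exons of Gencode M39. log2 CPM took a prior count of 2. Scripts were tested on simulated data.

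All 10 members are named. Fold changes are printed at an unadjusted p under 0.05, and list genes by the 2 smallest p per direction among those called, a few of which are not reported here. For likeness, the 3 genes with the highest correlation are given. Members and lists were chosen with earlier results of these data known.

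Alternatives were DESeq2 1.42.0, upper-quartile or no scaling, other filters, robust empirical Bayes, genotypes or populations fitted alone, blocks, and libraries left out. Deviations of same-numbered WT and *Ezr*-KOm libraries correlated at 0.102 to 0.316, against at most 0.0508 for other pairs, which met the limit of 0.1 for pairing by number. Between populations the range was 0.0905 to 0.397, against at most 0.0316, so that for moMs and matIMs the limit was narrowly missed (0.0947 and 0.0905 in 1 pair each of WT and *Ezr*-KOm), and blocked values there rest on the number alone.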

Additional observations from a re-analysis of the deposited data

How the results depend on the processing

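Counts of members called were recomputed under the alternatives. Between populations, the WT count of matIMs against tnsIMs rose from 1 to 2 with DESeq2, with the replicate block and with genotype and number as a block, and that block gave 4 members for matIMs against moMs in WT, 4 in *Ezr*-KOm and 2 for *Ezr*-KOm matIMs against tnsIMs. *Ezr*-KOm matIMs against moMs also gave 4 when that genotype was fitted alone. With the replicate block more genes were called over all tested genes too, 23.1% against 18.5% for WT matIMs against tnsIMs. Shares of all genes under the other alternatives are not given here, so that these rises cannot be read as particular to the members. The *Ezr*-KOm count of tnsIMs against moMs fell from 1 to 0 with upper-quartile scaling, library totals, no filter and at least 10 counts in every library, where *Fosl2* had adjusted p of 0.0542 to 0.0904. Leaving out libraries gave 0 to 1 member for tnsIMs against moMs in each genotype, 2 to 3 for matIMs against moMs in each, 1 to 2 for WT matIMs against tnsIMs, 0 to 1 for *Ezr*-KOm matIMs against tnsIMs, and 1 to 5 for replicate number. Leaving out all libraries of 1 number was chosen after seeing the data. Replicate number called 3 members within *Ezr*-KOm alone. The genotype and interaction counts were 0 under every alternative run. The cause of these changes was not tested. The population fold changes printed for *Fos*, *Fosl1*, *Fosl2*, *Junb* and *Ier2* kept their direction under the alternatives run, while other named fold changes (genotype and list genes) were not refitted. The median over the members turned to -0.010 for WT tnsIMs against moMs with the replicate block, and with libraries left out this median and those of *Ezr*-KOm tnsIMs and matIMs against moMs changed sign. The replicate block changed no call other than those given for *Fosl1* and *Junb*. With 3 libraries in a group, low counts left wide intervals, as for *Fosl1* between WT matIMs and moMs (log2 -2.11 to -0.17).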
